A study of Rattus norvegicus with 24 samples.

Results

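The genes described here belong to the TNF superfamily of ligands and receptors, to the adaptors and kinases that bind these receptors, and to the caspase, Birc and Bcl2 families of cell death. They were chosen by name. A gene was a member when the name given in the array files, without its suffix, began with *Tnfsf*, *Tnfrsf*, *Tnfaip*, *Traf*, *Tradd*, *Fadd*, *Fas*, *Ripk*, *Casp*, *Birc* or *Bcl2*, or was *Bax*, *Bad*, *Bid*, *Bak1*, *Mcl1* or *Cflar*, and when it was not in the MHC or NKC gene lists of the study. This gave 74 genes with 95 probes, of 7263 gene names and 8453 probes on the array. The rule uses names and no measured value, but it was chosen with earlier results of these data known. The pattern also took in 5 genes by their letters alone, *Fastk*, *Tnfsf5ip1*, *Traf3ip1*, *Ripk5* and *Casp8ap2*, which are kept apart below. By accession, symbol or synonym all 74 names were found in a RefSeq table of rat genes, where *Tnfrsf6* is *Fas*, *Tnfrsf5* is *Cd40*, *Tnfrsf19l* is *Relt*, *Birc4* is *Xiap*, *Birc1b* is *Naip6*, *Ripk5* is *Dstyk* and *Tnfsf5ip1* is *Psmg2*. The names of the array files are used here.

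Skin of 12 male BN rats aged 15 weeks was cut into explants, and 2 explants of each rat were cultured for 3 days, one with syngeneic BN lymphocytes and the other with allogeneic PVG lymphocytes. Both kinds of lymphocyte came from a 7-day mixed lymphocyte reaction with irradiated BN stimulator cells. The RNA of both explants was hybridized together on an Agilent array for both dyes, and again on a second array with Cy3 and Cy5 exchanged, which gives 24 arrays, 12 for each dye orientation, on 3 slides of 4 rats each. Both explants of a rat were thus exposed to lymphocytes that had met BN stimulator cells, and explants kept in medium alone were not on the arrays. The explant is a model in vitro, without blood flow, and its RNA comes from skin cells and from lymphocytes that stay in the tissue. Fewer cells of a type and less RNA per cell can therefore not be told apart. The added lymphocytes were PVG in one explant and BN in the other, so that a difference between these strains cannot be told apart from the reaction.

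Ligands of the TNF superfamily bind receptors on the cell surface. Receptors with a death domain, such as that of *Tnfrsf6* and *Tnfrsf1a*, can recruit the adaptors *Fadd* and *Tradd* and activate the initiator caspase *Casp8*, which cleaves executioner caspases. Receptors without a death domain bind *Traf* proteins, which lead to NF-κB and to survival genes. *Bid*, cut by *Casp8*, carries the signal to the mitochondrion, where *Bax* and *Bak1* open the outer membrane and *Bcl2*, *Bcl2l1*, *Mcl1* and *Bcl2a1* oppose them. The *Birc* proteins include inhibitors of caspases. Death of keratinocytes at the base of the epidermis is a hallmark of the graft versus host reaction in skin.

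Each probe is a designed sequence of 60 bases. The sequences below are those of the genes with the most reproducible decreases and increases, of *Casp8*, and of genes whose probes gave different values, so that a reader can see what was measured. Coordinates are those of the array files on the rat build rn3, the strand is the one they give, and exons of that build were not used here. A probe with a span above its own length is split on the genome. In *Tnfrsf1b* probes a and b, capitals mark the 47 bases that both share, and the other sequences are in lower case throughout.
Tnfaip8l2 (chr2:190006145-190006204, minus strand): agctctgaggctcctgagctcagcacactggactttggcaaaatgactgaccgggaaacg
Tnfsf13 (chr10:56513805-56513864, minus strand): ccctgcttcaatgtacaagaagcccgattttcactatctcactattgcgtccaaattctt
Tnfrsf1b probe a (chr5:163676740-163676799, minus strand): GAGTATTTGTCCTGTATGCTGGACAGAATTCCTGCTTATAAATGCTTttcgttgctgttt
Tnfrsf1b probe b (chr5:163676753-163676812, minus strand): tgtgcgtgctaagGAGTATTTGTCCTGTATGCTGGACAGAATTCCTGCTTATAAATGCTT
Tnfrsf1b probe c (chr5:163687706-163687765, minus strand): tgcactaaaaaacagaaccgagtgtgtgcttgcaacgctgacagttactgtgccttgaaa
Bcl2l1 probe a (chr3:143034965-143035024, minus strand): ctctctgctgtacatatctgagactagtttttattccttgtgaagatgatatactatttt
Bcl2l1 probe b (chr3:143082726-143082785, minus strand): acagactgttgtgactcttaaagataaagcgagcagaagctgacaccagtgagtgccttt
Birc1b probe a (not mapped in the file): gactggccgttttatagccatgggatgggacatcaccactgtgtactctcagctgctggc
Birc1b probe b (chr2:31086569-31086628, minus strand): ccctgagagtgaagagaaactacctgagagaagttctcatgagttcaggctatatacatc
Bid (chr4:157541253-157541312, minus strand): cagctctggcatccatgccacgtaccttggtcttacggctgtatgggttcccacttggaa
Casp14 (chr7:12489061-12489278, plus strand): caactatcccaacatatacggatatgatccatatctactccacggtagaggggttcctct
Casp8 (chr9:57584589-57584648, plus strand): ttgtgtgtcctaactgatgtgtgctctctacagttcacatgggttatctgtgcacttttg

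No member probe shared a run of more than 16 bases with a probe of another gene on the array, compared as written. The longest such run, of 16 bases, was between *Tnfaip8l2* and an MHC class I probe. Cross-reaction with transcripts that have no probe was not tested, which concerns *Birc1b*, one of a family of near-identical *Naip* copies.

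All values are log2-fold changes of the allogeneic over the syngeneic sample as the dye labels give them, averaged over the 2 arrays of a rat, with the SD over 12 rats. The signs are opposite to those in the tables of the study: a value below 0 stands for a dimmer allogeneic-labeled explant, and if the dye labels were exchanged every "lower" here would read "higher" and the reverse. For most of the genes it tested, the study's quantitative PCR on part of these explants went in the direction of its tables. Which direction is right was not tested here. A gene was called changed at an adjusted p under 0.05 (limma, mean against 0, adjusted over 7263 genes). Among the 74 genes, 17 were called, 14 of them lower and 3 higher in the allogeneic-labeled explants. This is 23% of the members, and 16.3% of all genes on the array were called, 7.6% lower and 8.66% higher. The median log2-fold change was -0.033 over the members and 0.012 over all genes. The same sign in 12 of 12 rats was seen for 6 members, *Tnfsf13*, *Tnfrsf12a*, *Tnfrsf21*, *Tnfrsf1b*, *Bid* and *Tnfaip8l2*, which is 8.11%, against 5.87% of all genes. The means of the 3 slides had one sign for each of the 17 called genes, which were chosen by the mean of the same 12 rats. When each rat was left out in turn, 15 of the 17 stayed called, all but *Bcl2a1* and *Tnfaip6*. An unadjusted p under 0.05 was found for 30 members (40.5%) and for 29% of all genes.

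**Figure D1:**
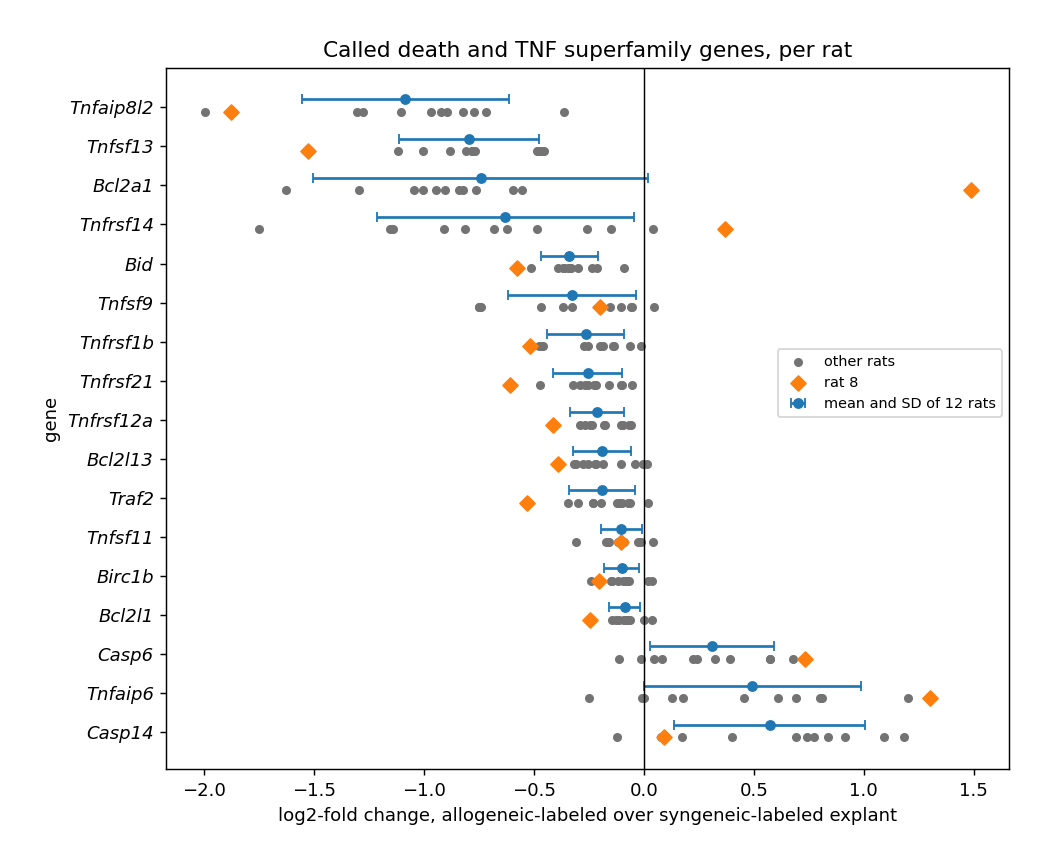
Log2-fold change (x axis, allogeneic-labeled over syngeneic-labeled explant) of the 17 called genes, 1 gene per line, with a point per rat, rat 8 as an orange diamond, and the mean and SD of 12 rats in blue. *Tnfaip8l2* and *Tnfsf13* lay below 0 in 12 of 12 rats, and *Bcl2a1* lay below 0 in 11 rats and at 1.49 in rat 8.

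The arrays differed in 2 ways that touch these genes. The share of spots well above background ran from 78.3% to 99.7% in Cy3 and from 74.8% to 99.9% in Cy5. Array 1 of rat 10 was far brighter than the rest, with a median intensity of 6668 in Cy3 and 25642 in Cy5 where the other arrays had 135 to 216 and 269 to 415. Rat 8 stood apart in its log ratios: its median correlation with the other rats over all genes was 0.15, against 0.30 to 0.65 for the others, whereas its own 2 arrays had a correlation of 0.94. For 45 of the 74 members (60.8%) and 42.5% of all genes rat 8 was the rat farthest from 0, and for 52 members (70.3%) and 53.5% of all genes its value lay outside the range of the other 11 rats. Its removal moved none of the 17 called genes by more than 1.27 times. Over all members it moved 36 by over 1.5 times or turned their sign, with the sign turned for 14. Values without rat 8 are given below for only a part of these and for some others. Without it, 27 members (36.5%) were called, and 24.1% of all genes. All 17 genes called with 12 rats were among these 27.

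Among the 8 ligands, *Tnfsf13*, *Tnfsf9* and *Tnfsf11* were called, all lower (37.5%, against 16.3% of all genes). *Tnfsf13* encodes APRIL, a survival factor for B cells and plasma cells that myeloid cells release. Its log2 intensity was 7.66 to 8.41 (median 8.18) in the allogeneic-labeled explants and 8.14 to 9.90 (median 8.90) in the syngeneic-labeled explants. The ranges overlap between rats, but within each of the 12 rats the allogeneic-labeled explant was lower. The log2-fold change ran from -1.53 in rat 8 to -0.46 in rat 11, with a mean of -0.80 ± 0.32 (SD over n = 12 rats, standard error 0.086, adjusted p = 1.08e-04). It was -0.73 without rat 8. *Tnfsf12*, the TWEAK gene, has its probe 4.2 kb from that of *Tnfsf13* on chromosome 10 and the same strand, and had -0.077 ± 0.14 (adjusted p = 0.206), or -0.040 without rat 8.

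*Tnfsf9*, the ligand of the costimulatory receptor 4-1BB, was lower in 11 of 12 rats, from -0.75 to 0.047 (median -0.26), with a mean of -0.33 ± 0.29 (adjusted p = 0.0133). The 4 rats of the third slide had a mean of -0.64, and the other 2 slides -0.25 and -0.092. *Tnfsf11* encodes RANKL, best known for the formation of osteoclasts. Its mean was -0.10 ± 0.093 (adjusted p = 0.0201), lower in 11 of 12 rats. The *Tnfsf11* probe exceeded the background clearly on only 3 of 24 arrays in the allogeneic and 11 of 24 in the syngeneic channel, and the scanner software's processed signals gave -0.64. These signals differ from the main ones in both background and dye correction. The other 5 ligands were not called and lay between -0.28 and 0.025. *Tnfsf10*, which encodes the death ligand TRAIL, had -0.089 ± 0.10 (adjusted p = 0.0549) with a probe well above background on 4 and 9 of 24 arrays. With the processed signals it was called at -0.56 (adjusted p = 0.0105). *Tnfsf4*, the OX40 ligand, had -0.28 ± 0.43 and ranged from -1.21 in rat 11 to 0.29 in rat 8 (adjusted p = 0.133).

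Of the 15 receptors, 4 were called (26.7%, against 16.3% of all genes) and all 4 were lower. *Tnfrsf14*, known as HVEM, had the largest mean of them. Its log2 intensity was 7.88 to 9.18 (median 8.85) in the allogeneic-labeled and 8.37 to 10.6 (median 9.42) in the syngeneic-labeled explants. The log2-fold change was -0.63 ± 0.58 (SD over n = 12 rats, SE 0.158, adjusted p = 0.016), with 10 rats lower, rat 3 at 0.040 and rat 8 at 0.37. Rat 9 was lowest at -1.75. Without rat 8 the mean was -0.72 (adjusted p = 0.00315). From the Cy5 orientation alone, that is the 12 arrays with allogeneic RNA in Cy5, the call was lost, at -0.37 (adjusted p = 0.0848).

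*Tnfrsf1b* encodes TNFR2, a TNF receptor without a death domain that is frequent on leukocytes. Its value over 3 probes was -0.27 ± 0.17 (adjusted p = 0.00278), lower in 12 of 12 rats. The overlapping probes a and b, which share the bases in capitals above, gave -0.39 ± 0.24 and -0.32 ± 0.19, lower in 12 rats each. Probe c, about 11 kb away on the array's build, gave -0.090 and was lower in 8 rats (adjusted p = 0.0745, adjusted over 8453 probes). All 3 probes were above background on 23 or 24 arrays in each channel. *Tnfrsf21*, the death receptor DR6, had -0.26 ± 0.16 (adjusted p = 0.00191), and its 2 probes gave -0.32 and -0.19. *Tnfrsf12a*, the TWEAK receptor, had -0.21 ± 0.12 (adjusted p = 0.00139) with 2 probes at -0.22 and -0.21. Each of these was lower in 12 of 12 rats. *Tnfrsf12a* was -0.41 in the Cy5 orientation and -0.015 in the Cy3 orientation (adjusted p = 0.876). The value of a single orientation also holds any dye effect on the gene.

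The receptors that carry a death domain and lead directly to *Casp8* were not called. *Tnfrsf6* (Fas) had 0.12 ± 0.22 (adjusted p = 0.219), higher in 7 of 12 rats, *Tnfrsf1a* (TNFR1) -0.0078 ± 0.11 (adjusted p = 0.896, 0.012 without rat 8) and *Tnfrsf10b* (a TRAIL receptor) 0.017 ± 0.046 (adjusted p = 0.524). The *Tnfrsf10b* probe cleared the background on 1 of 24 arrays in each channel. *Tnfrsf4*, the OX40 receptor of activated T cells, had -0.081 ± 0.13 (adjusted p = 0.164). All 11 receptors that were not called lay between -0.13 and 0.12.

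Of the 11 adaptors and kinases, *Traf2* was the one called (9.09%, against 16.3% of all genes). It binds TNFR1 and TNFR2 complexes and links them to NF-κB and JNK. *Traf2* was lower in 11 of 12 rats, from -0.53 in rat 8 to 0.018 in rat 3 (median -0.16), with a mean of -0.19 ± 0.15 (adjusted p = 0.0076). Its 2 probes gave -0.20 and -0.18. The value was -0.36 in the Cy5 orientation and -0.025 in the Cy3 orientation (adjusted p = 0.746), each with any dye effect on the gene in it. The others lay between -0.12 and 0.16. *Traf6*, which serves Toll-like and IL-1 receptors, had 0.16 ± 0.22 (adjusted p = 0.101) and *Tradd* 0.091 ± 0.13 (adjusted p = 0.127). *Fadd*, the adaptor between death receptors and *Casp8*, had -0.021 ± 0.22 (adjusted p = 0.855), and 0.019 without rat 8.

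The *Tnfaip* genes are named for their induction by TNF and have unrelated functions. *Tnfaip8l2*, or TIPE2, an inhibitor of T cell receptor and Toll-like receptor signaling that is expressed by lymphoid and myeloid cells, had the largest change of all members. Its log2 intensity was 8.20 to 9.70 (median 9.44) in the allogeneic-labeled explants and 9.12 to 11.6 (median 10.4) in the syngeneic-labeled explants. Within each of the 12 rats the allogeneic-labeled explant was lower. The log2-fold change ran from -2.00 in rat 9 to -0.36 in rat 11, with a mean of -1.09 ± 0.47 (SD over n = 12 rats, SE 0.128, adjusted p = 1.76e-04). It was -1.08 in the Cy5 and -1.10 in the Cy3 orientation and -1.01 without rat 8. No other member had a mean change of 1 or more in size.

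*Tnfaip6*, or TSG-6, a secreted hyaluronan-binding protein of inflamed tissue, went the other way. Its log2-fold change was 0.49 ± 0.49 (adjusted p = 0.024), higher in 9 of 12 rats, from -0.25 in rat 2 to 1.30 in rat 8 (median 0.53). Its 2 probes gave 0.50 and 0.49. The slide means were 0.31, 0.87 and 0.30. Without rat 1 it was not called (adjusted p = 0.0517), and without rat 8 it was 0.42 (adjusted p = 0.0253). In the Cy3 orientation alone it was 0.39 and not called (adjusted p = 0.0925). *Tnfaip8*, which opposes apoptosis in several cell types, had 0.10 ± 0.18 (adjusted p = 0.194), with rat 8 at 0.64, and 0.056 without that rat (adjusted p = 0.112). *Tnfaip1* had 0.15 ± 0.20 (adjusted p = 0.0911), but with opposite signs in the orientations: -0.38 with the allogeneic sample in Cy5 (adjusted p = 0.00485) and 0.68 with it in Cy3 (adjusted p = 9.1e-05). It was the 1 member of 74 called in both orientations with opposite signs, and 396 of all 7263 genes were so called.

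**Figure D2:**
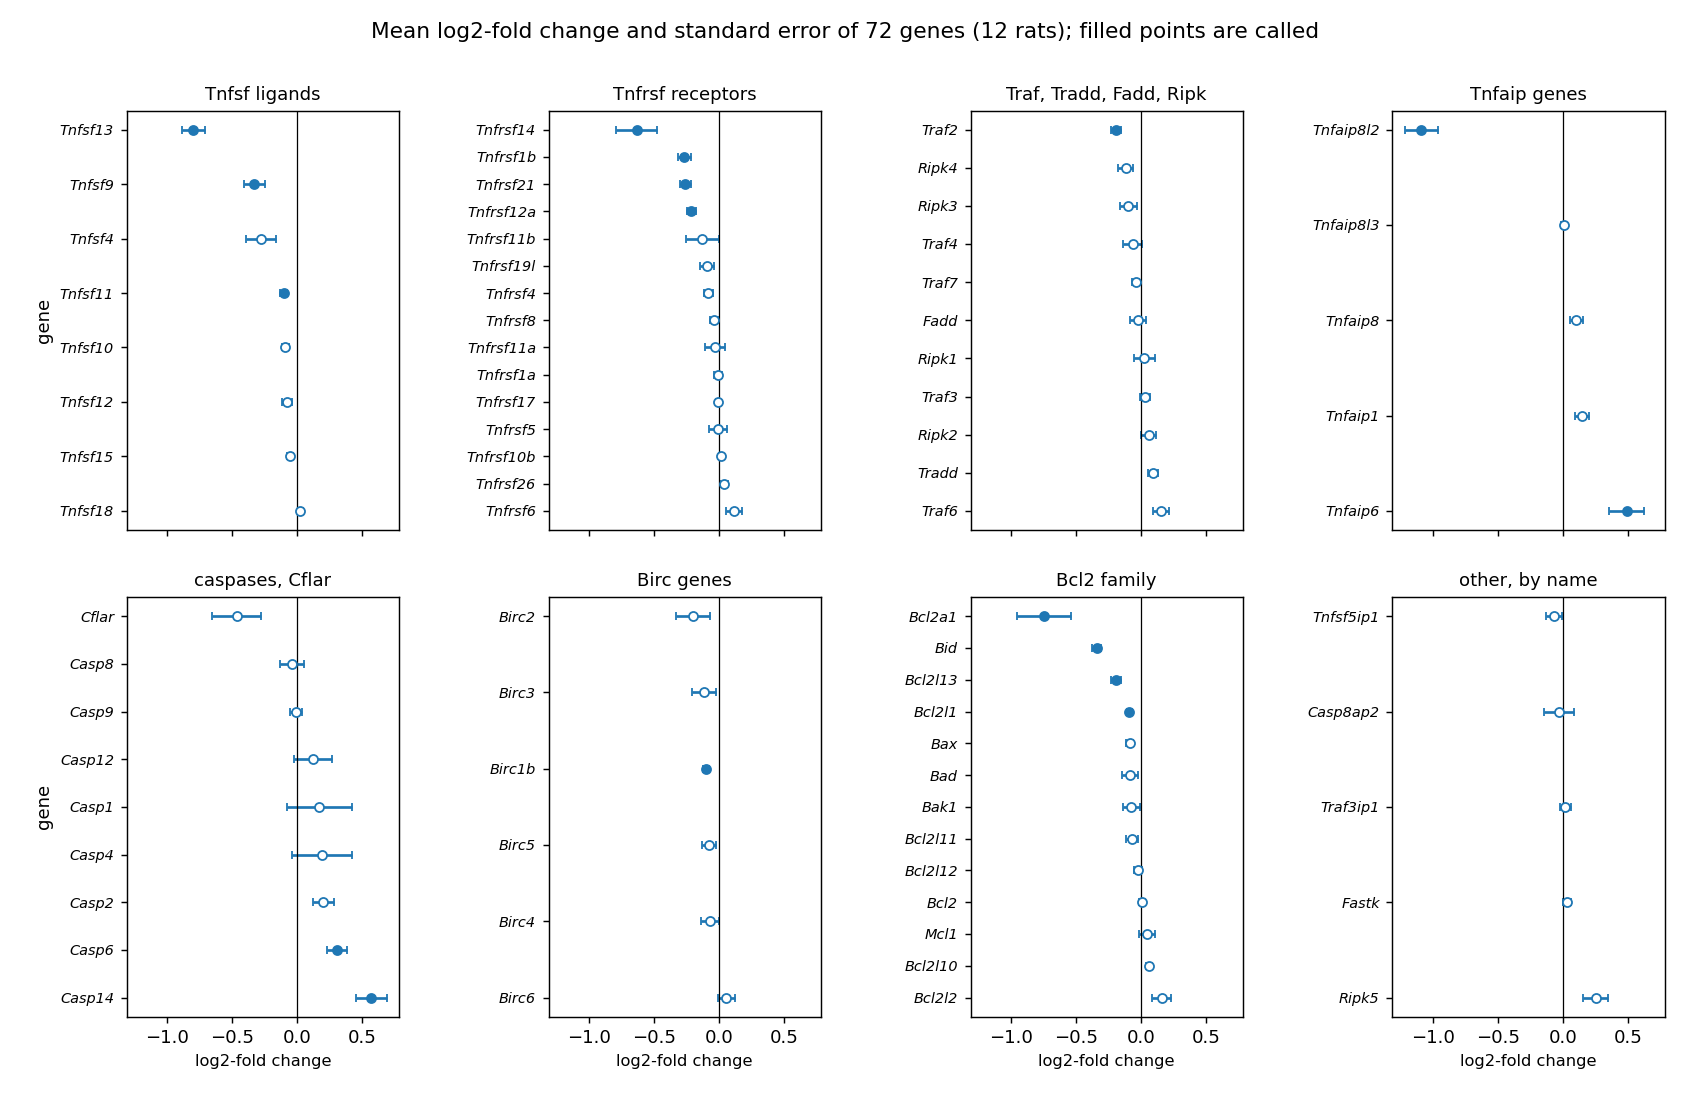
Mean log2-fold change (x axis) and standard error over 12 rats of 72 of the 74 genes, grouped by role, with filled points for called genes. The called ligands, receptors and Bcl2 family genes all lie below 0, and the called caspases, *Casp6* and *Casp14*, lie above it.

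Of the 11 genes in the group of caspases and *Cflar*, 2 were called, both higher (18.2%, near the 16.3% of all genes). *Casp14* is a caspase of the epidermis that takes part in filaggrin processing and cornification and is not an executioner of apoptosis. Its log2 intensity was 7.50 to 8.85 (median 8.16) in the allogeneic-labeled and 7.01 to 8.31 (median 7.51) in the syngeneic-labeled explants. The log2-fold change was 0.57 ± 0.43 (SD over n = 12 rats, SE 0.117, adjusted p = 0.00551), higher in 11 of 12 rats, from -0.12 in rat 3 to 1.18 in rat 9. The processed signals gave 0.93. *Casp6*, an executioner caspase that cuts lamins, had 0.31 ± 0.28 (adjusted p = 0.015), higher in 10 of 12 rats. On the Cy5 orientation alone it was 0.19 (adjusted p = 0.0678). *Casp2* had 0.20 ± 0.29 (adjusted p = 0.109), with a mean above 0 on each slide and rat 8 as the highest rat. Without rat 8 it was 0.12 and called (adjusted p = 0.00383), and it was also called in the Cy5 orientation, with the rat as a random block and by the signed-rank test.

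*Casp8*, the initiator of the death receptor pathway, was not called, and its value rested on rat 8. It was lowest in rat 10 at -0.37, with a median of -0.14, and highest in rat 8 at 0.96. The mean was -0.041 ± 0.34 (standard error 0.0917, adjusted p = 0.813), with 9 of 12 rats lower. Without rat 8 the SD fell to 0.13 and the mean was -0.13 (adjusted p = 0.0204). In the Cy3 orientation alone the mean was 0.017. *Cflar*, or c-FLIP, which blocks *Casp8* at the receptor, had the most negative mean of the genes not called, at -0.46 ± 0.69 (adjusted p = 0.116). It ranged from -1.42 in rat 2 to 0.81 in rat 8 and was lower in 9 of 12 rats, and without rat 8 it was called at -0.58 (adjusted p = 0.0203).

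The inflammatory caspases *Casp1*, *Casp4* and *Casp12* were far higher in rat 8 than in any of the other 11 rats, whose means were -0.093, -0.050 and -0.012. *Casp1*, which activates interleukin-1β, was 3.10 in rat 8 and between -0.27 and 0.10 in the other rats. *Casp4* was 2.88 and between -0.23 and 0.090, and *Casp12* 1.61 and between -0.43 and 0.34. *Casp1*, *Casp12* and *Casp4* have their probes within 73.7 kb on chromosome 8. The intensities of both channels place the difference in the syngeneic-labeled explant of rat 8. There *Casp1* had a log2 intensity of 9.11, below the 10.5 to 12.5 of the other syngeneic-labeled explants, and the allogeneic-labeled explant of rat 8, at 12.2, lay within the range of the others, 10.4 to 12.5. The same held for *Casp4* (8.94 against 9.83 to 11.8) and *Casp12* (8.16 against 9.20 to 10.5). Over all members, the syngeneic-labeled explant of rat 8 was below the other 11 rats for 22 genes and above them for 18, which is 29.7% and 24.3%, where all genes had 18.2% and 21.5%. Its allogeneic-labeled explant was below for 5 members (6.76%, all genes 4.06%) and above for 12 (16.2%, all genes 20.2%). *Trp63*, the 1 listed keratinocyte marker that was matched to a probe, was also highest in rat 8, at 2.44. The other rats lay between -0.34 and 0.55, and the part of *Trp63* in the caspase values was not tested.

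**Figure D3:**
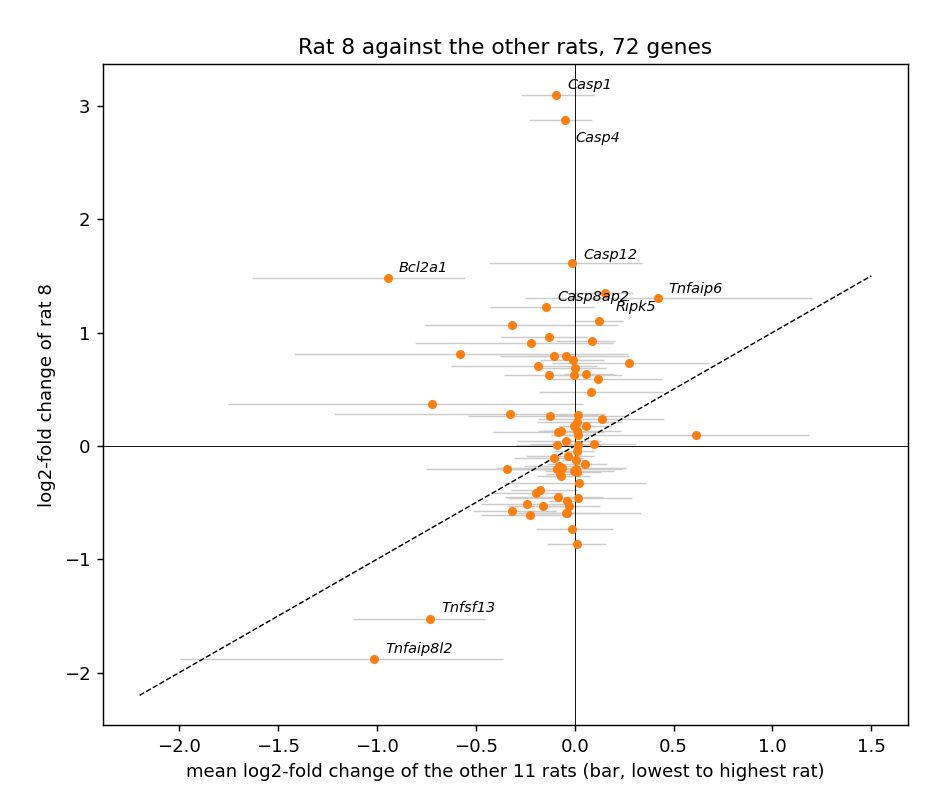
Log2-fold change of rat 8 (y axis) against the mean of the other 11 rats (x axis, with a bar from the lowest to the highest of them) for 72 of the 74 genes, and the line of equal values as a dashed line. *Casp1*, *Casp4* and *Casp12* stand above 1.6 in rat 8 with the mean of the other rats near 0, *Bcl2a1* has the opposite sign, and *Tnfaip8l2* and *Tnfsf13* are lower in rat 8 as in the others.

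In the Bcl2 family, 4 of 13 genes were called, all lower (30.8%, against 16.3% of all genes). *Bid*, the BH3-only protein that connects *Casp8* to the mitochondrion, was lower in 12 of 12 rats. Its values lay between -0.58 in rat 8 and -0.092 in rat 3 (median -0.34), with a mean of -0.34 ± 0.13 (SD over n = 12 rats, SE 0.0361, adjusted p = 1.02e-04). The SD is small against the mean, and both orientations gave nearly the same value, -0.33 and -0.35. *Bcl2l13*, a mitochondrial Bcl2-like protein, has its probe 5.5 kb from that of *Bid* on chromosome 4 and on the other strand. Its value was -0.19 ± 0.13, with 11 of 12 rats below 0 (adjusted p = 0.00375).

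*Bcl2a1*, an NF-κB target that protects leukocytes from death, had a large mean change and a large spread. The log2 intensity was 10.3 to 12.3 (median 12.0) in the allogeneic-labeled and 10.5 to 13.5 (median 12.8) in the syngeneic-labeled explants. It was -0.55 or lower in 11 rats, with rat 9 at -1.63, and 1.49 in rat 8. The mean was -0.74 ± 0.76 (standard error 0.206, adjusted p = 0.0262). Without rat 8 the mean was -0.95 ± 0.31 (adjusted p = 2.22e-05), and when rat 1, 5, 7, 9, 11 or 12 was left out, which keeps rat 8, it was not called (highest adjusted p = 0.0591). The exact signed-rank test, which weighs ranks, did not call it either (adjusted p = 0.103).

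*Bcl2l1*, which encodes Bcl-xL, had a small mean of -0.088 ± 0.071 (adjusted p = 0.0141). Probe a gave -0.18 ± 0.15 and was well above background on all 24 arrays, and probe b gave 0.0070 and was above background on 10 and 12 of 24, so that the gene's value is an average over a bright probe that changed and a dim one. *Birc1b* showed the same pattern, at -0.10 ± 0.080 (adjusted p = 0.0122). It was the 1 called among the 6 *Birc* genes (16.7%, near the 16.3% of all genes). Its probe a gave -0.19, lower in 12 of 12 rats, and probe b -0.016, above background on 1 of 24 arrays in each channel. With median centring in place of loess *Bcl2l1* and *Birc1b* lost their call (adjusted p = 0.0515 and 0.0689), as they did in the authors' table (0.0526 and 0.0620, with *Birc1b* at -0.37). *Bcl2l1* also lost it with the processed signals (0.0643) and in the Cy5 orientation alone (0.176). *Birc2*, or cIAP1, a ubiquitin ligase of the TNF receptor complex, had -0.20 ± 0.48 (adjusted p = 0.343) and ranged from -0.76 in rat 9 to 1.07 in rat 8. It was called without rat 8, at -0.32 (adjusted p = 0.0108). *Birc5*, or survivin, which marks dividing cells, had -0.077 ± 0.20 (adjusted p = 0.383).

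The other 9 Bcl2 family genes lay between -0.086 and 0.16. *Bax* had -0.086 ± 0.10 (adjusted p = 0.0678) and *Bcl2l10* 0.066 ± 0.078 (adjusted p = 0.0779), while *Bcl2* itself had 0.011 ± 0.071 (adjusted p = 0.780, -0.0035 without rat 8). Among the 5 genes taken in by their letters, none was called with 12 rats, and they lay between -0.067 and 0.25. At an unadjusted p under 0.05 there was 1 of them, *Ripk5*, at 0.25 ± 0.36 (adjusted p = 0.101, and 0.15 with adjusted p = 0.00344 without rat 8), and the random block and signed-rank fits called it too. *Fastk* had 0.036 ± 0.11 (adjusted p = 0.498).

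In the limma fit over rats, 10 members were not called with 12 rats and were called without rat 8: *Bcl2l2*, *Birc2*, *Birc4*, *Casp2*, *Casp8*, *Casp8ap2*, *Cflar*, *Ripk5*, *Tnfrsf11a* and *Tnfsf15*. Of these, *Bcl2l2*, *Casp2*, *Cflar* and *Ripk5* were also called with rat 8 kept in at least 1 other setting. *Bcl2l2*, *Casp2* and *Ripk5* were higher and the other 7 lower. Their means without rat 8 lay between -0.58 for *Cflar* and 0.15 for *Ripk5*.

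**Figure D4:**
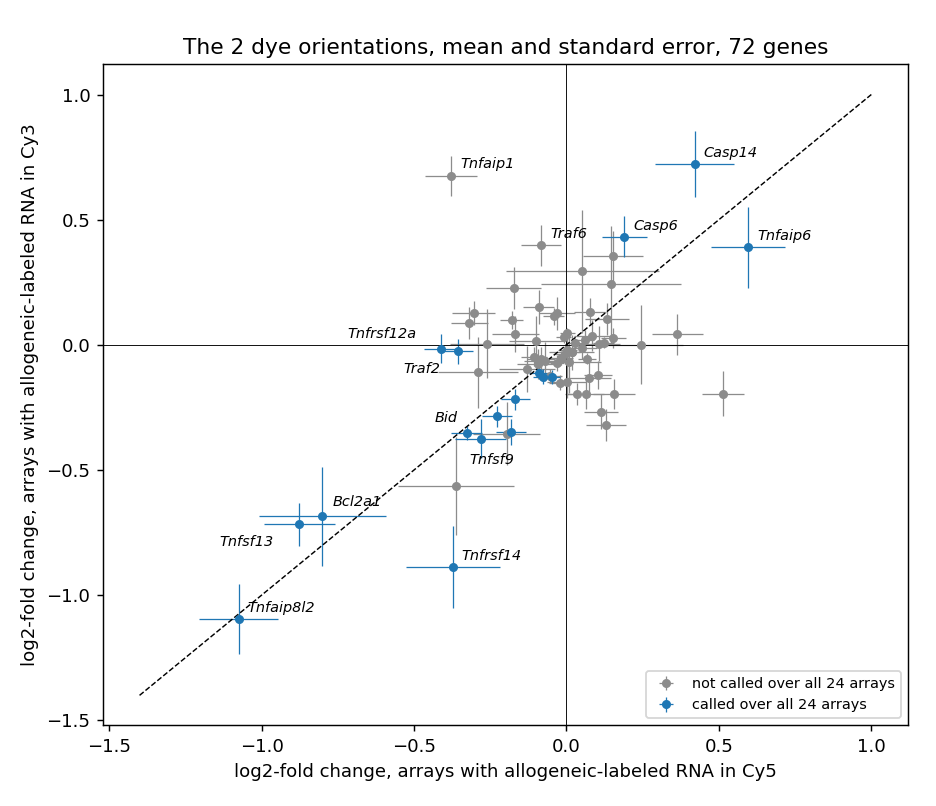
Log2-fold change from the 12 arrays with the allogeneic sample in Cy5 (x axis) and from the 12 with it in Cy3 (y axis), each with its standard error, for 72 of the 74 genes, with the called genes in blue and the line of equal values dashed. *Tnfaip8l2*, *Bcl2a1* and *Tnfsf13* lie close to the line, *Tnfrsf12a* and *Traf2* lie near 0 in the Cy3 orientation, and *Tnfaip1* has opposite signs.

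The orientations also differed for large changes, as given above for *Tnfrsf14*, *Tnfaip6* and *Tnfaip1*. Of the 74 members, 28 had opposite signs in the 2 orientations (37.8%), as had 51.1% of all genes, and none of the 17 called genes, which were chosen by the mean of both orientations, was among them. A dye effect that is equal on both arrays of a rat cancels in their mean, which is the value used above. It stays in the value of a single orientation.

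Genes of the same pathways outside the name rule were counted from lists made for TNF and NF-κB signaling and for the execution of cell death. Of 28 signaling genes listed, 23 were matched to the array, and 5 were called, all lower (21.7%, against 16.3% of all genes). *Tnf* had -0.16 ± 0.099 (adjusted p = 0.0021), *Lta* -0.30 ± 0.22, *Ltb* -0.54 ± 0.39, *Rel* -0.22 ± 0.19 and *Nfkbia*, the inhibitor that NF-κB induces, -0.32 ± 0.32. The remaining 18, with *Nfkb1*, *Rela*, *Ikbkb* and *Mapk8* among them, were not called. Of 36 execution names listed, *Xiap* is the member *Birc4*, and 30 genes outside the members were matched to the array. Of these 30, 6 were called (20%), 3 in each direction. *Gzmb* and *Gzma*, the granzymes of cytotoxic cells, had -0.69 ± 0.47 and -0.38 ± 0.39, and *Dapk1* -0.14 ± 0.11, each lower in 12 of 12 rats. *Bok*, *Nol3* and *Bag3* were higher, at 0.32 ± 0.29, 0.26 ± 0.21 and 0.15 ± 0.11.

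The called markers of T cells and NK cells, and most of the called macrophage markers, were lower, as were most of the called members. Over all genes on the array 16.3% were called, 7.6% lower and 8.66% higher. Of 10 T cell markers with a probe, 5 were called, all lower, among them *Cd8b* at -0.49 and *Lck* at -0.70, and *Cd3d*, *Cd3e* and *Cd3g* were not called (-0.16, -0.11 and -0.40). The summed signal of the T cell list was lower in the allogeneic-labeled explant in 9 of 12 rats, with log2 sums of 11.3 to 13.6 (median 11.6) against 11.6 to 13.5 (median 11.9). Of 12 macrophage markers 5 were called lower and 2 higher, with *Fcgr3a* at -2.19 and *C1qa* at 0.21, and the summed signal was lower in 11 of 12 rats (14.7 to 15.8, median 15.5, against 14.8 to 16.4, median 15.9). Of 5 NK cell markers 2 were called lower, and their sum was lower in 12 of 12 rats, by a median of 0.11 in log2 units. None of the 4 B cell markers was called by limma, with 1 at an unadjusted p under 0.05. The 5 endothelial markers (2 called) and the 2 fibroblast markers (1 called) had calls in the higher direction alone, with *Cdh5* at 0.33 and *Col1a2* at 0.55. Of 11 keratinocyte markers listed, 1 was matched to the array, *Trp63*, at 0.30 ± 0.75 (adjusted p = 0.357). Matching used the listed symbols and RefSeq accessions, so that keratin probes under other names may have been missed. The epidermis was not checked by its keratins. Most of these markers were well above background on all arrays, and *Cd4* was on 13 of 24 in each channel. The NK cell markers *Klrd1*, *Ncr1* and *Klrb1a* were on 15, 20 and 21 arrays in the allogeneic channel. In the syngeneic channel they were on 16, 16 and 23. *Cd3z* was on 16 and 19 arrays and *Ms4a1* on 19 and 20. The part of the cell content of the explants in the changes of *Tnfsf13*, *Tnfaip8l2*, *Bcl2a1*, *Tnfrsf14* and *Tnfrsf1b*, which leukocytes express, and of *Casp14*, which the epidermis expresses, was not tested.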

How the data were processed

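Each array gave 1 scanner file. Per the file headers, mean spot intensities and median local background intensities were taken from the scanned image by Feature Extraction 9.5.1.1 and deposited without background subtraction, and the same files hold processed intensities, which the software corrected for background and dye before they were deposited. The authors also deposited a table of log2 ratios, whose columns do not name a direction, although the sample titles read stimulated against non-stimulated. All 24 columns correlated positively with allogeneic over syngeneic (0.707 to 0.955), so they were taken as already turned, and their medians lay between -0.027 and 0.022. No column was left out.

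Background was corrected with normexp, with an offset of 50 that shrinks the changes of dim probes. Dyes were balanced array by array with loess, which removes an intensity-dependent dye bias. Outlier and control spots were left out. Swapped arrays were turned, spots were averaged to probes, probes to genes (19 members had more than 1 probe) and the 2 arrays of a rat to 1 value. limma 3.58.1 in R 4.3.3 tested the mean of 12 rats against 0 over 7263 genes, and p-values were adjusted by the Benjamini-Hochberg method. Both samples of a rat share an array, so that the comparison is paired within rats. The number of rats limits the precision, since the 2 arrays of a rat hold the same RNA. Levels per channel were taken after loess and Aquantile normalization.

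The members, the lists and the alternatives were chosen with earlier results of these data known. Genes named with full values are *Casp8*, every called member and the 2 members of lowest p in each role group that were not called, and any other gene named was chosen after its values were seen. Values of 2 members are not reported here, by name or in the figures, and both stay in the counts. The scripts were tested on simulated data. Alternatives concerned the background correction, normalization, dye orientation, dim probes, outlier spots, slide, test, the authors' table, probe choice, the sign of rat 5, array 1 of rat 10 and each rat.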

Additional observations from a re-analysis of the deposited data

How the results depend on the processing

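Of the 17 members called, 3 higher and 14 lower, the total lay between 15 and 19 with the processed signals, without background subtraction, with median centring, without dim probes, with outlier spots, with the slide as a block, by mixed-effects ANOVA, by the exact signed-rank test, in the authors' table, with the brightest probe, per probe and without array 1 of rat 10. With the allogeneic sample in Cy3 alone 27 members (36.5%) were called, 7 of them higher, with 28.7% of all genes. With it in Cy5 alone 21 members (28.4%) and 30.2% of all genes were called, with 6 members higher and 17 of the 53 pathway genes, against 11 with both. With the slide as a block and by the signed-rank test 5 members were called higher. The 2 explants of a rat share its arrays, so the comparison is paired, and with the rat as a random replicate block over 24 arrays 25 members (33.8%) were called, 7 of them higher, and 19.4% of all genes. With the sign of rat 5 turned against its dye labels limma called 0 members, 0 higher, 0 lower and 0 pathway genes, and 0 of all 7263 genes. With its labels kept, rat 5 had the highest median correlation with the other rats, 0.65, and its 2 arrays had a correlation of 0.72. Leaving out each rat in turn gave 15 to 27 members, 2 to 6 higher and 13 to 21 lower, and 9 to 21 pathway genes, with the highest totals without rat 8. The sign turned for *Casp8* in Cy3 alone (0.017), and in Cy5 alone for *Tnfaip1* (-0.38), *Traf6* (-0.084), *Fastk* (-0.042), *Tnfrsf4* (0.036) and *Birc5* (0.11). The cause was not tested. For single genes, 477 values under the other alternatives kept direction and call, 31 lost the call, 28 gained it and 6 changed sign, and 389 of those without 1 rat kept both, with 12 gained and 7 lost. For *Tnfsf11* no value was obtained without dim probes. Probes near background limit the size of changes in *Tnfsf10*, *Tnfsf11*, *Tnfrsf10b* and *Birc1b*.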
